A study of Homo sapiens with 6 samples.

Results

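IL32 and 9 genes of the NF-kB pathway were followed in 12Z cells, an established human cell line of endometriotic epithelial origin. The genes were listed by name, with earlier results of these data known. They are the cytokine gene IL32, the NF-kB subunit genes NFKB1, NFKB2, RELA and RELB, the genes of the inhibitors IkBα (NFKBIA) and A20 (TNFAIP3), and the target genes TNFAIP2, BIRC3 and ICAM1. All 10 were found among the 16279 genes with values and all 10 passed the filter on low counts, which kept 13311 genes. The question was how their mRNA differed between cells left without treatment (Control, n = 3) and cells given recombinant human chemerin (rhChemerin, n = 3). The agent was rhChem157S, the active form of this secreted adipokine, at 10 ng/mL for 48 h. The labels name no other agent and no engineered allele in either group. IL32 had been singled out by the study on these same libraries, so that its values here are not independent evidence of its direction. The study also measured IL32 by qPCR and reports a change in the same direction as in its RNA-seq.

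The libraries are labelled as biological replicates of a single cell line, and each held between 35430881 and 38341643 counts. FPKM (counts scaled to the gene's length and the library's total) are used for levels, and log2 fold changes were fitted on TMM-normalised counts by the quasi-likelihood test of edgeR, with Benjamini-Hochberg adjustment over the 13311 genes. A gene passed where its adjusted p was under 0.05. A single value compared alone between 3 and 3 libraries cannot go below p = 0.1 in an exact two-sided permutation test. Without TMM the median log2 fold change of all tested genes moves from 0.01 to -0.12, and FPKM carry that shift too. In bulk RNA, fewer cells that express a gene and less of its RNA per cell cannot be told apart.

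The cells were checked against markers of their labelled type. The keratin genes KRT8, KRT18 and KRT19 were abundant, at 277 to 966 FPKM, and MUC1 stood at 6.79 to 14.4 FPKM. The epithelial adhesion genes CDH1 and EPCAM were close to absent, with no more than 65 and 45 counts in any library, while the collagen gene COL1A1 reached 728 to 1165 FPKM. Lymphoid cells are a common source of IL32, and of 6 lymphoid markers only PTPRC and GZMB had values, with no more than 12 and 10 counts. Their summed level was 0.0473 to 0.366 FPKM in Control and 0.0247 to 0.0827 FPKM in rhChemerin. The summed level of the myeloid markers went from 37.4 to 51.9 FPKM in Control to 6.90 to 21.5 FPKM in rhChemerin. Nearly all of it came from CD14, since LYZ, CSF1R and ITGAM had at most 23 counts and CD163 had no values. The summed endothelial level was 1.61 to 2.06 FPKM in Control and 0.991 to 1.42 FPKM in rhChemerin, and came mainly from KDR and VWF, with at most 10 counts of PECAM1 and 4 of CLDN5. VWF had 159, 131 and 112 counts in Control and 64, 23 and 13 with rhChemerin. Its log2 fold change was -1.97 with edgeR and missed the threshold there (adjusted p = 0.117), but VWF fell with DESeq2 (adjusted p = 0.00608). The summed epithelial and stromal levels overlapped between the groups, but single markers moved. With DESeq2, MUC1 fell (adjusted p = 0.0363) and the stromal receptor gene PDGFRA rose (adjusted p = 0.0212). Their log2 fold changes in edgeR were -0.57 and 0.79, and neither passed there (adjusted p = 0.135 and 0.124). CDH1 had 65, 42 and 54 counts in Control and 37, 15 and 18 with rhChemerin, EPCAM had 33, 22 and 45 against 11, 7 and 16, and neither gene passed with either tool. The part of these markers in the results was not tested. The library rhChemerin replicate 3 held the highest value of 34.1% of all tested genes and the lowest value of a further 32.2%.

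NF-kB is a family of transcription factors that act as dimers. In resting cells the dimer of RELA and p50, the processed product of NFKB1, is kept in the cytoplasm by IkBα. Receptors for TNF, IL-1 and microbial products switch on the IKK kinase complex, which marks IkBα for destruction and sets the dimer free to enter the nucleus. There it binds kappaB motifs and turns on cytokine, chemokine, adhesion and survival genes. NFKBIA and TNFAIP3 are among its targets, and their products switch the signal off again. A slower, non-canonical arm runs through the kinase NIK and the dimer of RELB with p52, the processed product of NFKB2. IL32 is a proinflammatory cytokine gene that is induced by TNF and IL-1, and its product can itself feed back on NF-kB.

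The kappaB motif is the sequence that NF-kB dimers bind, and for this reason promoter stretches of these genes that hold its letters are printed. A match describes the letters and does not show binding. Promoters of 250 bases upstream of the start site were taken from RefSeq (GRCh38.p14), which gave 14 start sites for 9 of the 10 genes. RELB had no entry. The RefSeq start sites can differ from the gene bounds of GENCODE given below. In IL32, NFKB2 and TNFAIP3 the matches lie inside those bounds. The kappaB consensus motif of 10 bases was searched on both strands, and overlapping matches were joined. It was found upstream of 7 of the 14 start sites, in IL32, NFKB1, NFKB2, NFKBIA, TNFAIP3 and BIRC3. Only full matches were counted, so that a promoter without a match can still hold similar letters. The ICAM1 promoter holds ggaaattccg, which differs from the NFKBIA match only in its last letter and was not counted. Of all 35116 RefSeq start sites, 9.96% had a match in the same length of sequence, and of the start sites of tested genes 12.1% did. The genes were chosen as NF-kB genes, so that this share is a description only. The longest stretch shown is the promoter of NFKBIA (chr14:35404750-35404999, minus strand), with the motif in capitals 81 to 72 bases before the start site.
NFKBIA: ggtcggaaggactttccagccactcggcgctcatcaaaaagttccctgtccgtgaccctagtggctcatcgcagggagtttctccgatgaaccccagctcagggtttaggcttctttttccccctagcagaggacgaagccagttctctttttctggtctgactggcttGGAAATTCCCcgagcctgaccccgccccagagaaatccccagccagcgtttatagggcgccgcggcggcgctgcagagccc

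The other matches are shown in windows of 30 bases on the plus strand, with the motif in capitals. The IL32 window lies at chr16:3065295-3065324 and its 2 overlapping matches span 99 to 89 bases before the start site. The NFKB1 window lies at chr4:102501300-102501329. The TNFAIP3 window lies at chr6:137867188-137867217 and holds 2 neighbouring matches between 67 and 46 bases before the start site. The BIRC3 windows lie at chr11:102317275-102317304 and chr11:102317339-102317368. Of the 4 windows of NFKB2, from several start sites, the one nearest to its start site lies at chr10:102395674-102395703 and is shown.
IL32: ctgtactcaGGGAGTTTCCCcagccagctg
NFKB1: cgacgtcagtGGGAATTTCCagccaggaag
TNFAIP3: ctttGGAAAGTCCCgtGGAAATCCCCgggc
BIRC3, distal: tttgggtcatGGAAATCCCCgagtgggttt
BIRC3, proximal: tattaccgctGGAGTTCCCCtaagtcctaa
NFKB2: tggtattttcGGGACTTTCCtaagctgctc

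With edgeR, 0 of the 10 genes had an adjusted p under 0.05, against 0.0301% of all tested genes. At an unadjusted p under 0.05, 4 of the 10 were lower with rhChemerin (IL32, NFKBIA, TNFAIP2 and ICAM1), where 11.4% of all tested genes were. None was higher at that threshold, where 11.4% of all tested genes were. With DESeq2, which the study used, IL32, NFKBIA and TNFAIP2 fell and passed an adjusted p under 0.05, and the background of genes that fell was 6.0%. The study also required an absolute log2 fold change above 1, which is not required here. The DESeq2 log2 fold change was -1.07 for IL32, -0.62 for NFKBIA and -0.46 for TNFAIP2, so that only IL32 would meet that rule. No member passed with DESeq2 in the other direction, where the background was 4.58%. On log2 CPM, every rhChemerin library lay below every Control library in 5 of the 10 genes (IL32, NFKBIA, TNFAIP2, BIRC3 and ICAM1), compared with 16.0% of all tested genes. None of the 10 lay wholly above, compared with 16.5% of all tested genes. Without IL32, 4 of 9 lay wholly below and 2 of 9 passed with DESeq2. The median log2 fold change of the 10 genes was -0.26, against 0.01 for all tested genes. It was -0.35 without rhChemerin replicate 3 and -0.15 without rhChemerin replicate 1.

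**Figure D1:**
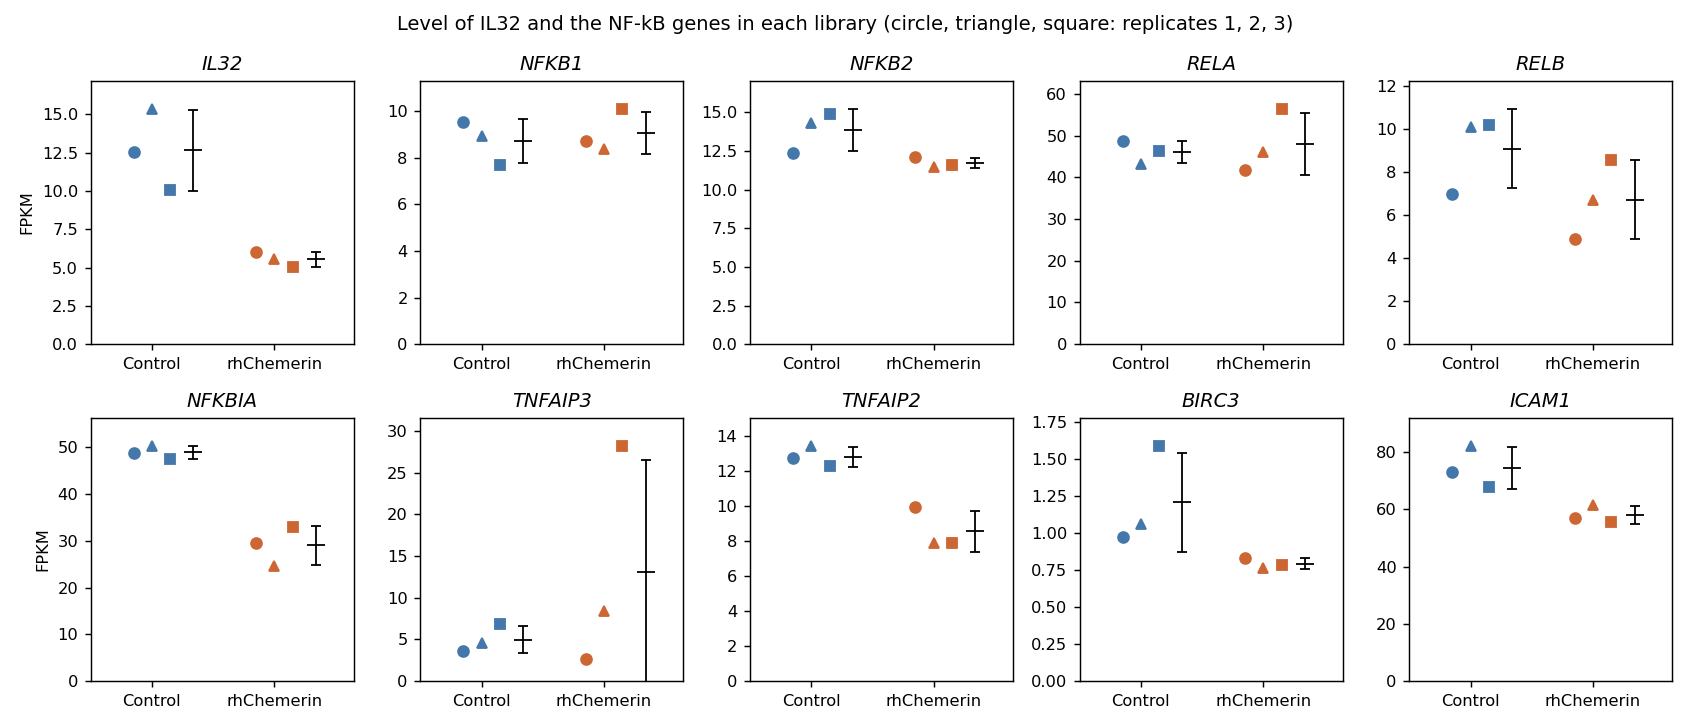
Level of each gene in FPKM (y axis, from 0, with its own scale in each panel) in the 3 Control and 3 rhChemerin libraries. Symbols stand for replicates, and the black bar gives the mean with its SD, cut at 0 for TNFAIP3, whose rhChemerin SD of 13.4 exceeds the mean of 13.1. IL32, NFKBIA, TNFAIP2, BIRC3, ICAM1 and, in FPKM, NFKB2 have every rhChemerin point below every Control point.

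In Control cells the genes spanned a wide range of FPKM. ICAM1 was the most abundant at 74.4 ± 7.26 FPKM (SD, n = 3), followed by NFKBIA at 48.9 ± 1.37 and RELA at 46.1 ± 2.74, whose ranges over the libraries overlapped. NFKB2 (13.8 ± 1.34), TNFAIP2 (12.8 ± 0.576), IL32 (12.6 ± 2.63), RELB (9.09 ± 1.84) and NFKB1 (8.70 ± 0.941) came next, and each overlapped its neighbour in this order. TNFAIP3 at 4.96 ± 1.64 FPKM and BIRC3 at 1.20 ± 0.333 FPKM each lay below the gene before them without overlap. With rhChemerin, RELA stood at 48 ± 7.51 FPKM and NFKBIA at 29.1 ± 4.20 FPKM, and their ranges no longer overlapped.

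IL32 (chr16:3065297-3082192, plus strand, GRCh38) stood at 12.5, 15.3 and 10.1 FPKM in Control replicates 1 to 3 and at 5.99, 5.59 and 5.02 FPKM in rhChemerin replicates 1 to 3. All 3 rhChemerin libraries lay below the lowest Control library, and they were close to each other, with a mean of 5.53 ± 0.486 FPKM (SD, n = 3). The level on the TMM scale was 47.8% of Control, a log2 fold change of -1.06 (SE 0.19). This missed the threshold with edgeR (adjusted p = 0.0752) and passed with DESeq2 (adjusted p = 6.99e-05). Leaving out any library gave log2 fold changes between -1.20 and -0.91. Without rhChemerin replicate 3 the fold change was -1.04 and without rhChemerin replicate 1 it was -1.10, and both then passed with edgeR (adjusted p = 0.0470 and 0.0437). Over the 13 alternatives the adjusted p of IL32 ran from 6.99e-05 with DESeq2 to 0.359 with edgeR without Control replicate 2. The values rest on 175 to 525 counts per library. GENCODE release 29 lists 30 protein-coding transcripts of IL32, and 129 of its exon bases lie within those of the small RNA pseudogene RNU1-125P on the same strand.

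The subunit genes did not share the pattern of IL32. RELA (chr11:65653596-65663094, minus strand), which encodes the main transactivating subunit p65, measured 48.7, 43.2 and 46.3 FPKM in Control and 41.7, 46.0 and 56.3 FPKM with rhChemerin. The groups overlapped, and the log2 fold change was 0.20 (SE 0.15, edgeR adjusted p = 0.451). It came to 0.01 without rhChemerin replicate 3, the highest library. NFKB1 (chr4:102501329-102617302, plus strand), the precursor gene of p50, measured 9.52, 8.91 and 7.67 FPKM in Control and 8.73, 8.35 and 10.1 FPKM with rhChemerin. These groups overlapped too, with a log2 fold change of 0.19 (SE 0.14, edgeR adjusted p = 0.427). It was 0.06 without rhChemerin replicate 3, also its highest library, and 0.11 without Control replicate 3. With library size only, both RELA and NFKB1 were at 0.06.

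The genes of the non-canonical arm had values on the other side of 0. NFKB2 (chr10:102394110-102402529, plus strand), the precursor gene of p52, measured 12.3, 14.3 and 14.9 FPKM in Control and 12.1, 11.4 and 11.6 FPKM with rhChemerin. The groups were apart by a small gap in FPKM and overlapped on the TMM-scaled log2 CPM, where the log2 fold change was -0.11 (SE 0.10, edgeR adjusted p = 0.524). It was -0.24 with library size only and -0.05 without Control replicate 3. RELB (chr19:45001430-45038198, plus strand), whose product pairs with p52, measured 6.97, 10.1 and 10.2 FPKM in Control and 4.89, 6.72 and 8.55 FPKM with rhChemerin. The groups overlapped, and the log2 fold change of -0.29 (SE 0.26, edgeR adjusted p = 0.517) ran from -0.56 without rhChemerin replicate 3 to -0.09 without rhChemerin replicate 1. No subunit gene passed the threshold under any of the 13 alternatives.

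**Figure D2:**
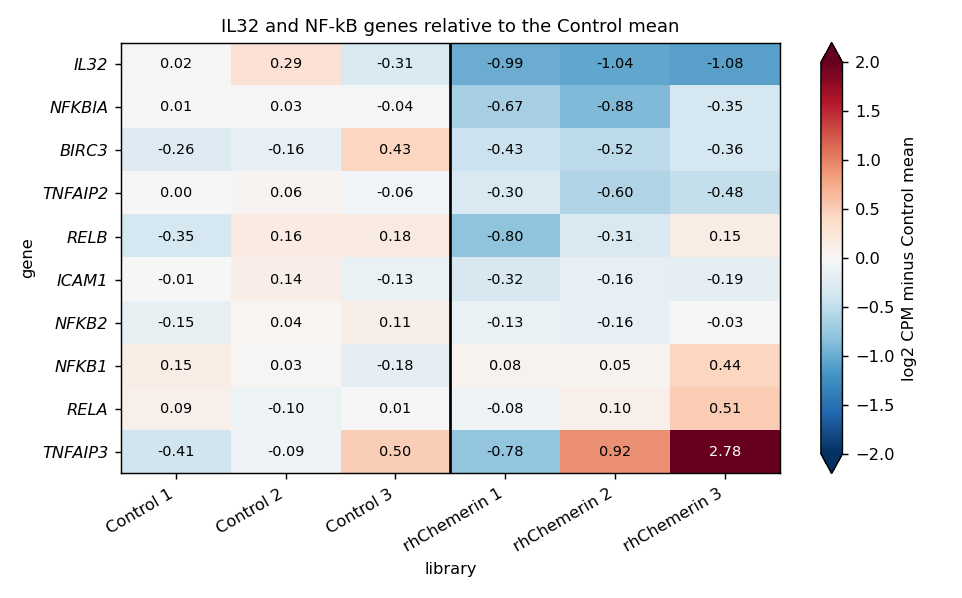
Log2 CPM of each gene minus its own Control mean (colour and printed number, colours capped at 2 in either direction) in the 6 libraries, with genes ordered by their log2 fold change. IL32 is between -0.99 and -1.08 in the rhChemerin libraries, whereas TNFAIP3 goes from -0.78 to 2.78.

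The genes of the inhibitors differed from each other. NFKBIA (chr14:35401511-35404749, minus strand), which encodes IkBα, measured 48.9, 50.3 and 47.6 FPKM in Control and 29.5, 24.7 and 33.1 FPKM with rhChemerin. Every rhChemerin library was below every Control library, and the Control libraries were nearly level. On the TMM scale it was at 65.3% of Control, with a log2 fold change of -0.61 (SE 0.14). It missed the threshold with edgeR (adjusted p = 0.0948) and passed with DESeq2 (adjusted p = 0.00347). Without rhChemerin replicate 3 the log2 fold change was -0.77 and passed with edgeR (adjusted p = 0.0211). Over the 13 alternatives its adjusted p ran from 0.00347 with DESeq2 to 0.377 with edgeR without Control replicate 2.

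TNFAIP3 (chr6:137867188-137883312, plus strand), which encodes the ubiquitin-editing enzyme A20, spread more than any other of the 10 genes. It measured 3.58, 4.52 and 6.78 FPKM in Control and 2.65, 8.43 and 28.2 FPKM with rhChemerin. The rhChemerin libraries held both the lowest and the highest value of the 6, and these differed 10.6-fold. The log2 fold change of 1.59 had an SE of 0.77 (edgeR adjusted p = 0.264) and was 0.25 without rhChemerin replicate 3 and 2.07 without rhChemerin replicate 1. Counts ran from 605 to 6274, so that depth does not limit these values.

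Ratios of FPKM within a library were added after the values had been seen, and they do not depend on the scaling of the libraries. The ratio of NFKBIA to RELA, inhibitor to subunit, was 1.00, 1.16 and 1.03 in Control and 0.706, 0.537 and 0.587 with rhChemerin. The groups did not overlap, and the mean was 1.07 ± 0.0867 in Control and 0.610 ± 0.0873 with rhChemerin (SD, n = 3). NFKBIA to NFKB1 was likewise apart, at 5.13, 5.65 and 6.21 in Control and 3.38, 2.95 and 3.28 with rhChemerin. The ratio of TNFAIP3 to NFKBIA was 0.0732, 0.0898 and 0.142 in Control and 0.0900, 0.342 and 0.854 with rhChemerin, and the groups overlapped. These are ratios of mRNA and say nothing of the amounts of protein.

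**Figure D3:**
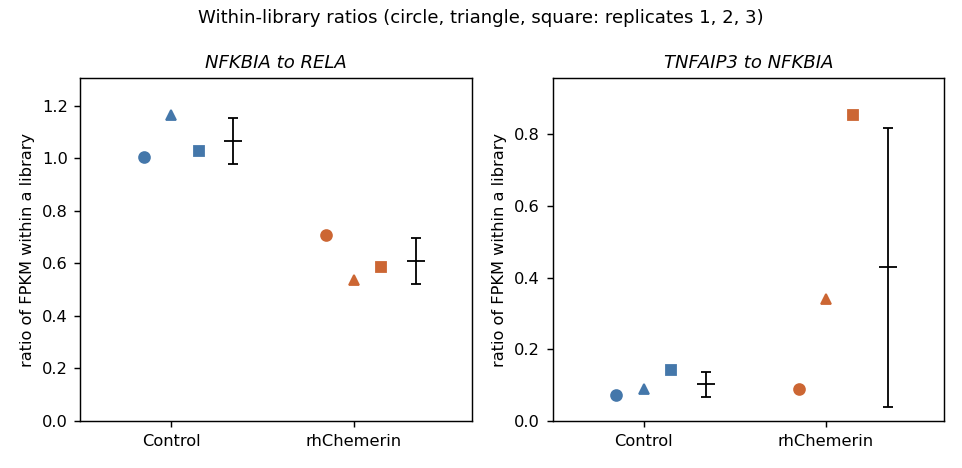
Ratio of FPKM within each library (y axis, from 0) for NFKBIA to RELA and for TNFAIP3 to NFKBIA, with symbols for replicates and a black bar for the mean with its SD. NFKBIA to RELA is between 1.00 and 1.16 in Control and between 0.537 and 0.706 with rhChemerin, and TNFAIP3 to NFKBIA spreads from 0.0900 to 0.854 with rhChemerin.

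The 3 target genes all had lower values with rhChemerin. TNFAIP2 (chr14:103123442-103137439, plus strand), a TNF-induced gene whose product takes part in membrane protrusion, measured 12.7, 13.4 and 12.3 FPKM in Control and 9.93, 7.87 and 7.89 FPKM with rhChemerin. The groups did not overlap, and the level on the TMM scale was 72.9% of Control. The log2 fold change was -0.46 (SE 0.10) and missed the threshold with edgeR (adjusted p = 0.0948) but passed with DESeq2 (adjusted p = 0.00490). Without rhChemerin replicate 1 it was -0.55 and passed with edgeR (adjusted p = 0.0401), and without rhChemerin replicate 3 it was -0.45 and did not (adjusted p = 0.0624). Over the 13 alternatives its adjusted p ran from 0.00490 with DESeq2 to 0.377 with edgeR without Control replicate 2.

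BIRC3 (chr11:102317450-102339403, plus strand), which encodes the ubiquitin ligase cIAP2 that holds back cell death, was the least abundant gene. It measured 0.969, 1.06 and 1.59 FPKM in Control and 0.831, 0.759 and 0.785 FPKM with rhChemerin, from 122 to 253 counts. The groups were apart by a narrow gap, and Control replicate 3 stood above the rest. The log2 fold change was -0.47 (SE 0.25, edgeR adjusted p = 0.293), and it was -0.22 without Control replicate 3.

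ICAM1 (chr19:10270835-10286615, plus strand), the gene of a leukocyte adhesion molecule, measured 73.2, 82.2 and 67.8 FPKM in Control and 56.8, 61.6 and 55.7 FPKM with rhChemerin. The groups did not overlap, and the log2 fold change was -0.23 (SE 0.10, edgeR adjusted p = 0.216, DESeq2 adjusted p = 0.172). It was -0.36 with library size only. Of its 3706 exon bases, 815 lie opposite those of the antisense gene AC011511.5, which has no values, and the strand setting of the counting is not given in the sources used here, so that reads of the pair cannot be told apart. The ratio of IL32 to ICAM1 was 0.171, 0.186 and 0.148 in Control and 0.105, 0.0907 and 0.0902 with rhChemerin, without overlap.

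**Figure D4:**
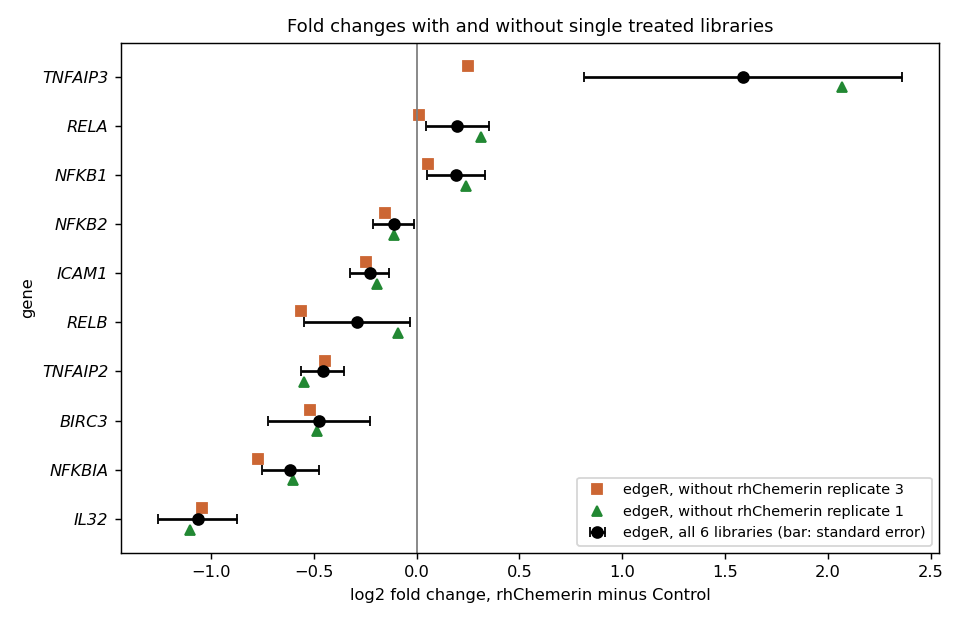
Log2 fold change of each gene, rhChemerin minus Control (x axis), from edgeR with all 6 libraries (black, bar for the standard error) and without rhChemerin replicate 3 or replicate 1 (coloured symbols). IL32 stays between -1.04 and -1.10 in all 3 fits, and TNFAIP3 ranges from 0.25 to 2.07.

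Around these genes, 67 further genes of the pathway were examined in lists by role, of which 62 passed the filter on low counts. With edgeR 0 of the 62 passed an adjusted p under 0.05, and at an unadjusted p under 0.05, 6 were lower and 6 higher, where 11.4% of all tested genes were in each direction. With DESeq2, 2 fell and 1 rose, against 6.0% and 4.58% of all tested genes. The log2 fold change was below 0 in 34 and above 0 in 28, and its median was -0.03, while over all tested genes 6425 of 13311 were below 0 and the median was 0.01.

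The list of the other subunit and the IkB family had 3 genes with values below 0 and 3 above. NFKBIE, which encodes the inhibitor IkBε, measured 10.6, 11.0 and 12.6 FPKM in Control and 7.34, 6.25 and 7.36 FPKM with rhChemerin. It did not overlap between the groups and fell with DESeq2 (adjusted p = 0.00536), but not with edgeR (log2 fold change -0.57, SE 0.13, adjusted p = 0.0954). NFKBIZ, the gene of a nuclear cofactor of the IkB family, measured 5.40, 6.07 and 6.32 FPKM in Control and 6.28, 8.15 and 8.65 FPKM with rhChemerin. Its log2 fold change was 0.51 (SE 0.16, edgeR adjusted p = 0.142). On log2 CPM every rhChemerin library lay above every Control library, as in 16.5% of all tested genes, but in FPKM the groups overlapped.

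Among 10 genes of the IKK complex and its activating kinases, 8 had values below 0 and the median log2 fold change was -0.11. The furthest from 0 were TAB1 and IKBKG, the genes of a kinase adaptor and of the IKK scaffold NEMO, both at -0.23 (edgeR adjusted p = 0.323 and 0.489). Among 9 receptors, 7 had values below 0, with a median of -0.21. LTBR, the lymphotoxin receptor that feeds the non-canonical arm, measured 70.8, 69.7 and 68.5 FPKM in Control and 48.7, 48 and 54.2 FPKM with rhChemerin. It did not overlap and fell with DESeq2 (adjusted p = 0.0476), but not with edgeR (log2 fold change -0.34, SE 0.10, adjusted p = 0.135). CD40 and TLR2 had the values furthest from 0, at -0.94 and -0.52, with SEs of 0.66 and 0.36, and CD40 had only 8 to 55 counts.

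Among 11 adaptors, 7 had values below 0, with a median of -0.05. IRAK1, a kinase below the IL-1 receptor, had a log2 fold change of 0.70 (SE 0.29, edgeR adjusted p = 0.214), which was 0.29 without rhChemerin replicate 3. TRAF1 was at -0.35 (SE 0.27, edgeR adjusted p = 0.449). Among 7 genes of deubiquitinases and partners of A20, 6 had values above 0, with a median of 0.18 that was 0.05 with library size only. On TMM-scaled log2 CPM 4 of them had every rhChemerin library above every Control library, as did 16.5% of all tested genes, but in FPKM the groups overlapped in all 4. OTUD7B and TAX1BP1 were the furthest, both at 0.20 (edgeR adjusted p = 0.190 and 0.183).

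The 24 further target genes, of which 19 were tested, varied among the libraries of both groups, and more widely among the rhChemerin libraries. Their median log2 CPM relative to the Control mean was -0.55 in rhChemerin replicate 1, 0.01 in replicate 2 and 0.87 in replicate 3. In Control replicates 1, 2 and 3 it was -0.26, 0.03 and 0.29, a rise in the same order. Of the 19, 13 had their lowest value in rhChemerin replicate 1 (68.4%), compared with 13.7% of all tested genes. Replicate 3 held the highest value in 12 of the 19 (63.2%), compared with 34.1% of all tested genes. The median log2 fold change of the list was 0.32, and it was -0.20 without rhChemerin replicate 3 and 0.64 without rhChemerin replicate 1.

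CXCL8 and CXCL1 had the log2 fold changes furthest from 0 in this list, and both spread widely among the rhChemerin libraries. CXCL8, the gene of interleukin 8, measured 1.24, 1.84 and 2.91 FPKM in Control and 0.349, 2.72 and 21.5 FPKM with rhChemerin. Its log2 fold change of 2.24 (SE 1.21, edgeR adjusted p = 0.305) turned to -0.29 without rhChemerin replicate 3. CXCL1, which encodes another neutrophil attractant, measured 1.66, 2.99 and 3.05 FPKM in Control and 1.60, 4.41 and 21.6 FPKM with rhChemerin, with a log2 fold change of 2.03 (SE 0.89, edgeR adjusted p = 0.227) that was 0.32 without that library. As in TNFAIP3, the order of the rhChemerin libraries was replicate 1, 2 and 3 from low to high in both genes. The Control libraries of these genes and of TNFAIP3 had the same order, over a narrower range.

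Of the target genes outside the members, MMP9 was the only one to pass with any setting that used all 6 libraries. This gene of a secreted matrix metalloproteinase, also picked by the study on these libraries, measured 0.254, 0.757 and 0.903 FPKM in Control and 1.48, 3.17 and 2.34 FPKM with rhChemerin. The groups did not overlap, and MMP9 rose with DESeq2 (adjusted p = 0.00211) but not with edgeR (log2 fold change 2.00, SE 0.50, adjusted p = 0.106). The study also reports a rise of MMP9 by qPCR. CCL2, the gene of a monocyte attractant and chosen after its values were seen, measured 29.4, 28.3 and 46.4 FPKM in Control and 9.54, 16.2 and 22.9 FPKM with rhChemerin. It did not overlap either, and its log2 fold change was -0.95 (SE 0.36, edgeR adjusted p = 0.184). CSF2 and BCL2A1, also chosen after their values were seen, had 28 and 13 counts in rhChemerin replicate 3 and 0 counts in the other 5 libraries.

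**Figure D5:**
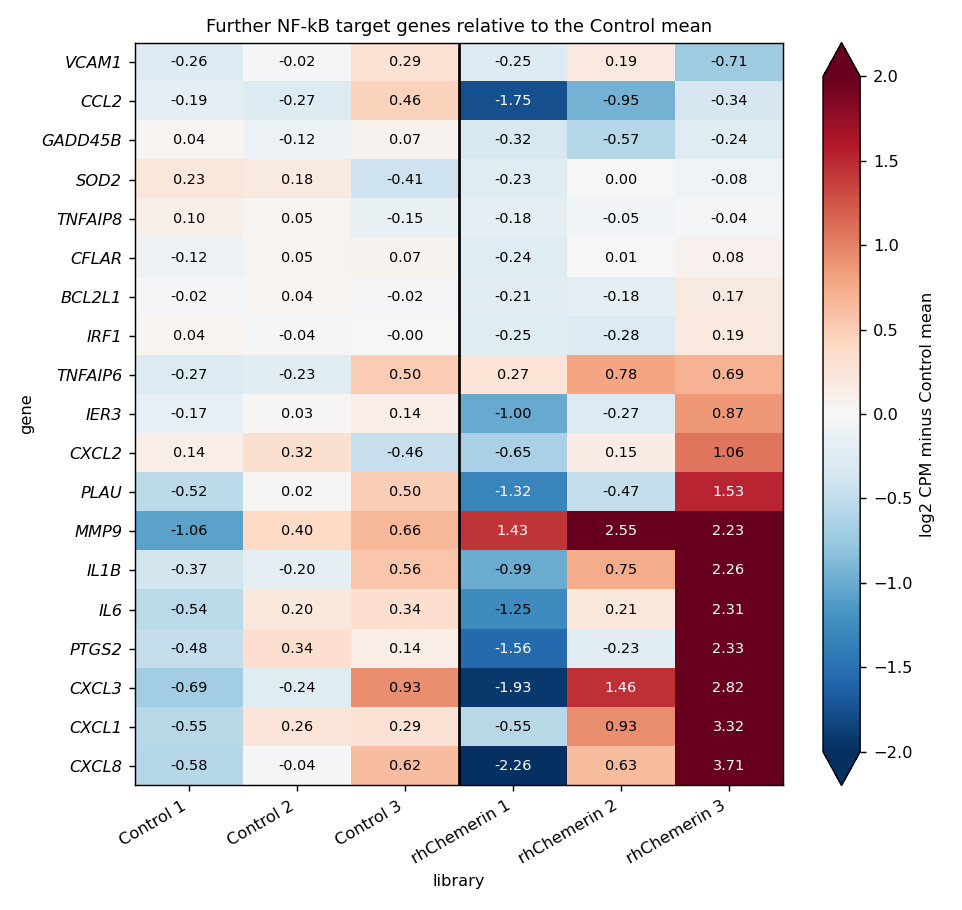
Log2 CPM of the 19 tested further target genes minus their own Control mean (colour and printed number, colours capped at 2 in either direction) in the 6 libraries, ordered by rhChemerin replicate 3. Most genes are lowest in rhChemerin replicate 1 (13 of 19) and highest in rhChemerin replicate 3 (12 of 19). In 5 genes (CCL2, GADD45B, TNFAIP8, MMP9 and TNFAIP6) all 3 rhChemerin libraries lie on the same side of the Control mean.

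The genes whose pattern was most like that of IL32 were found from the mean absolute difference of log2 CPM, each relative to its own Control mean, over the 6 libraries. The nearest 5 of 13310 were HES6 (0.109), ZMAT3 (0.126), PLIN4 (0.127), MST1R (0.128) and SCNN1A (0.136). Their log2 fold changes of -0.98, -0.94, -1.29, -1.13 and -0.94 follow from this choice and are a description only. PLIN4 and MST1R were barely expressed, at 0.0739 and 0.157 FPKM in Control. Among the NF-kB genes NFKBIA was the nearest at 0.292, in place 305, followed by TNFAIP2 at 0.371, in place 820. TNFAIP3 was the furthest at 1.27, in place 13112.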

How the data were processed

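RNA of 12Z cells was sequenced in 3 Control and 3 rhChemerin libraries. The authors trimmed reads with fastp, aligned them with HISAT2 (GRCh38.p13 per the labels) and counted them with HTSeq-count. They deposited raw counts and FPKM of 16279 genes. The strand setting and annotation release are not given in the sources used here. The deposited FPKM equalled the count per fixed length and total in 79491 of 79491 values (tolerance 0.01 of the value). In the smallest library 1 count is 0.0282 CPM. SDs, SEs and p-values cover the spread between these libraries only.

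Counts were tested in R 4.3.3 with edgeR 4.0.16 (TMM, filterByExpr with a minimum count of 10, quasi-likelihood test, Benjamini-Hochberg). The fit was repeated with DESeq2 1.42.0, with limma 3.58.1 on log2 FPKM after adding 1 or 0.1, with library size only, no filter, at least 50 counts in 3 libraries, the replicate block, and leaving out each library. Log2 CPM used a prior count of 2. The scripts were tested on simulated data. Gene positions are those of GENCODE release 29.

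The genes and lists were chosen with earlier results of these data known. The text names all 10 genes, the list genes past the threshold with edgeR or DESeq2, the 2 tested genes furthest from 0 in each list, and the 5 genes most like IL32.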

Additional observations from a re-analysis of the deposited data

How the results depend on the processing

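The log2 fold change of IL32 was -1.06 and kept its direction in all 13 alternatives. It passed an adjusted p under 0.05 with DESeq2 (-1.07) and with limma on log2(FPKM + 1) (-1.05), and leaving out each library gave -1.20 to -0.91. The other 9 genes gave 117 alternative values, of which 0 changed direction and 5 were past the threshold, in NFKBIA and TNFAIP2. The number of the 10 genes past the threshold was 0 with edgeR, 3 with DESeq2, 2 with limma on log2(FPKM + 1), and 0 to 2 when a library was left out. For the 62 further pathway genes it was 0 with edgeR, 3 with DESeq2, 2 with limma on log2(FPKM + 1), and 0 to 2 when a library was left out. Over all genes 4 passed with edgeR, 1407 with DESeq2, 17 with no filter, 179 and 23 with limma on log2(FPKM + 1) and log2(FPKM + 0.1), and 0 to 844 when a library was left out (844 without rhChemerin replicate 1 and 415 without rhChemerin replicate 3). The cause of these differences was not tested.

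Same-numbered Control and rhChemerin libraries correlated at 0.24, 0.0015 and 0.25 in their deviations from the group means. Control replicates 1 and 3 correlated best with the rhChemerin library of their own number. Control replicate 2 correlated best with rhChemerin replicate 1 (0.11). Whether same-numbered libraries were prepared together is not stated in the labels and was not tested. With the replicate block, IL32 was at -1.05 (edgeR adjusted p = 0.0745), 0 of the 10 genes and 0 of the 62 passed, and 1 gene passed in all. Among the NF-kB genes named with a fold change, depth limits CD40, TLR2, BIRC3 and MMP9, with at most 55, 135, 253 and 269 counts. It also limits the lower values of CXCL8 and CXCL1. CXCL8 had 72, 111 and 172 counts in Control and 22 in rhChemerin replicate 1. CXCL1 had 69, 129 and 129 counts in Control and 72 in rhChemerin replicate 1.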

Other observations

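The NF-kB signalling pathway of KEGG, as annotated in the deposited tables and added after the data were seen, held 97 genes, of which 82 were tested, 8 belong to the 10 genes above and 39 are in the lists by role. With edgeR 0 of the 82 passed an adjusted p under 0.05, and 11 were lower and 7 higher at an unadjusted p under 0.05, where 11.4% of all tested genes were in each direction. With DESeq2, 6 fell and 2 rose, against 6.0% and 4.58% of all tested genes, and the median log2 fold change was -0.05. They are named with their log2 fold change in edgeR and their DESeq2 adjusted p in brackets. Beside NFKBIA and LTBR, the genes that fell were CD14, a co-receptor for lipopolysaccharide (-1.49, DESeq2 adjusted p = 5.11e-04), EDA2R, a receptor of the TNF family (-1.03, 0.0343), PIDD1, a scaffold of the DNA damage response (-0.71, 0.00121), and PLCG1, a phospholipase of receptor signalling (-0.25, 0.00813). The genes that rose were CXCL12, a chemokine (0.68, DESeq2 adjusted p = 0.0106), and PARP1, a DNA repair enzyme (0.33, 0.00397).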
